A study of Rattus norvegicus with 2 samples.

Results

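The miR-26 family was examined in exosomal small RNA of rat cardiomyocytes. Its members were taken by name, as every row of the count table named miR-26a, miR-26a-1, miR-26a-2 or miR-26b with any arm. This gave 3 of the 635 rows, listed as mmu-miR-26a-5p, mmu-miR-26b-5p and mmu-miR-26b-3p. The cells were primary cardiomyocytes from hearts of Wistar rats aged 1 to 2 days, enriched by differential adhesion and plated with 5′-bromo-2′-deoxyuridine, so cells of several hearts were mixed and other heart cells could remain. After 24 h of serum starvation they were kept for 48 h without angiotensin II (Ang II), which gave NC-Exo (exosomes of normal cardiomyocytes). The other culture received Ang II at 1 μmol/L over the same 48 h, which gave HC-Exo (exosomes of hypertrophic cardiomyocytes). Each condition had 1 library, so no value below has a replicate check, and every interval covers counting error only. The intervals treat each read as independent, whereas PCR copies are not independent molecules, so they may be too narrow even for counting error. The NC-Exo library held 102608 miRNA reads, and the HC-Exo library held 133155. Counts were divided by these totals to give reads per 1000000 miRNA reads (RPM), so that 1 read is worth 9.75 RPM in NC-Exo and 7.51 RPM in HC-Exo.

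A mature miRNA guides Argonaute proteins to messenger RNAs that pair with its seed, the bases from position 2 to 8, and such messages are then repressed. The miR-26 genes lie within genes of small C-terminal domain phosphatases, and the miRNAs and their host phosphatases are known together as brakes on the cell cycle. In the heart, miR-26 is known as a plentiful miRNA of muscle that restrains hypertrophic growth, and its known targets include Gsk3b, Gata4, Ezh2 and the potassium channel gene Kcnj2. The mature miR-26a-5p of the mouse is made from more than 1 gene, whereas miR-26b-5p comes from a single gene.

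The sequences are shown because both 5p members carry the same seed and could exchange reads in the counting. They are the rat sequences of RefSeq in the build GRCr8, although the count table uses mouse names, and capitals mark the seed.
miR-26a-5p: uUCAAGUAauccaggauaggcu
miR-26b-5p: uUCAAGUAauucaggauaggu
miR-26b-3p: cCUGUUCUccauuacuuggcuc

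Counted from 1 at the 5′ end, with the base of miR-26a-5p first, the 5p members differ at C11U and C21U among the 21 positions that both have, and miR-26a-5p has 22 bases. Among the 693 mature rat names of the sequence table, these 2 carry the seed UCAAGUA. Aligned from the first base without gaps, the nearest of the other names, miR-155-5p, differed from the closer 5p member at 9 positions. The 3p arms of the rat genes are less alike and differ at 7 of 21 positions. The hairpins are shown with the mature arms in capitals, so that the position of each counted arm can be seen. Mir26a is at chr8:127633048-127633137 on the plus strand of GRCr8, within the bounds of Ctdspl. Mir26b is at chr9:83425709-83425793 on the plus strand, within the bounds of Ctdsp1.
Mir26a: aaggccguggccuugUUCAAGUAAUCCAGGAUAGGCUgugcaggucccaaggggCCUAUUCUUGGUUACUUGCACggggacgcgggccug
Mir26b: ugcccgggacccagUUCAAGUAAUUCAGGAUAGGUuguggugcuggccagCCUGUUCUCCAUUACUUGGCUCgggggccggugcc

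Muscle miRNAs were present in both libraries, beside those of other heart cells. Of the cardiomyocyte markers, miR-1a-3p had 161917 RPM in NC-Exo and 174766 RPM in HC-Exo. Of the 5 cardiomyocyte markers, 3 were higher in HC-Exo by the exact binomial test described below and 0 were lower, beside 13.8% higher and 8.53% lower over all 340 tested miRNAs. The count of 3 was 2 with the median log2 ratio set to 0 or without the 10 most abundant miRNAs in the totals, and 1 with upper-quartile scaling. All of them had reads in both libraries, with a summed level of 166722 and 180917 RPM, and the lowest, miR-208a-3p, had 9 and 24 reads. The endothelial miRNAs miR-126a-5p and miR-126a-3p summed to 91114 RPM in NC-Exo and 66817 RPM in HC-Exo, most of it from miR-126a-5p, which was lower in HC-Exo with a log2 ratio of -0.49. The other of them, miR-126a-3p, lay on the opposite side at 4620 and 5347 RPM, a log2 ratio of 0.21 (0.04 to 0.38) that missed the threshold (exact binomial test, adjusted p = 0.0572). The smooth muscle pair miR-143-3p and miR-145a-5p summed to 23039 and 26901 RPM, most of it from miR-143-3p, the 1 of both that was higher. The 4 fibroblast and mesenchymal markers, led by miR-21a-5p, summed to 32600 and 31602 RPM, with 3 higher and 1, miR-214-3p, lower. Only 1 of them was higher under these 3 scalings and under TMM factors. The 4 blood markers with a row, led by miR-486a-5p, summed to 6978 and 7555 RPM, with 2 reads of miR-142a-3p in each library, and of these miR-223-3p was higher, whereas 0 blood markers passed under the same 3 scalings. A row for the blood marker miR-144-3p was not analysed here. The neuronal miR-124-3p had 0 reads in NC-Exo, which allows up to 29.2 RPM (3 reads), and 1 in HC-Exo, and miR-9-5p had 2 and 1. The liver miRNA miR-122-5p had 14 and 16 reads and did not pass. The miR-26 family is made in many cell types, and the part of each cell type in its level was not tested. Fewer cells of a type, fewer exosomes from it and less miRNA per exosome cannot be told apart in such libraries.

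Both 5p members were detected at low levels, and both had more reads in HC-Exo. For miR-26a-5p, 27 reads were counted in NC-Exo, a level of 263 RPM (95% Clopper-Pearson interval 173 to 383). In HC-Exo it had 53 reads, or 398 RPM (298 to 521). The intervals of the 2 libraries overlapped. For miR-26b-5p, 22 reads were counted in NC-Exo, a level of 214 RPM (134 to 325), and 53 reads in HC-Exo, again 398 RPM (298 to 521). Here too the intervals overlapped. The passenger arm miR-26b-3p was lower, with 5 reads in NC-Exo, or 48.7 RPM (15.8 to 114), and 6 reads in HC-Exo, or 45.1 RPM (16.5 to 98.1). Its levels lay below both 5p members in each library, and no interval of miR-26b-3p reached that of a 5p member. The 3 rows together held 0.0526% of the miRNA reads in NC-Exo (0.0395 to 0.0687%) and 0.0841% in HC-Exo (0.0693 to 0.101%). Of the 54 family reads in NC-Exo, 27 were miR-26a-5p, 22 miR-26b-5p and 5 miR-26b-3p.

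**Figure D1:**
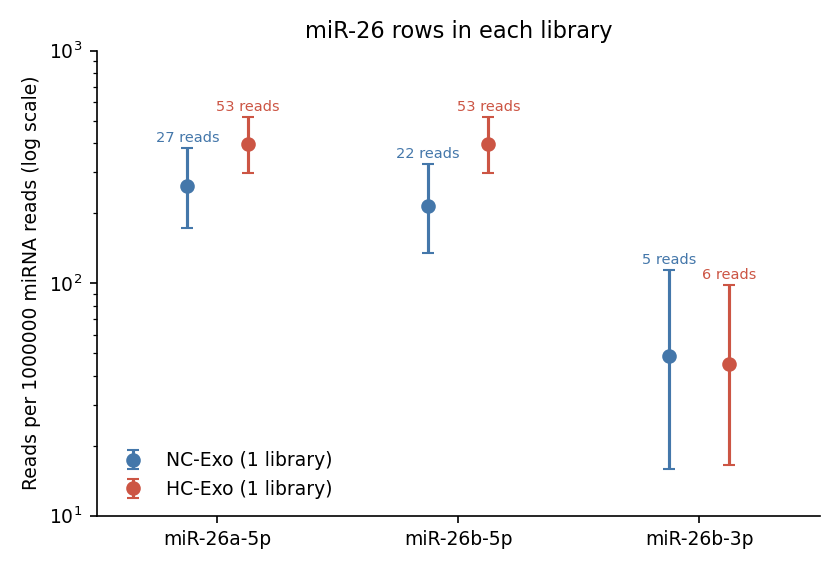
Level of each miR-26 row in reads per 1000000 miRNA reads on a log axis, with 1 library for each condition, points for the level and bars for the 95% Clopper-Pearson interval of counting error. Both 5p rows stand at 398 in HC-Exo, against 263 and 214 in NC-Exo, and miR-26b-3p stands under 50 in both.

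Both 5p members stood in the upper part of the detected miRNAs, but far below the leading ones. By reads, miR-26a-5p had rank 165 of the 515 miRNAs detected in NC-Exo, and counting error allowed ranks from 141 to 199. The rank of miR-26b-5p was 181 there, with 146 to 226 allowed, so their order in NC-Exo lies within counting error. In HC-Exo both shared rank 140 of 569, with 123 to 162 allowed. The most abundant row, miR-1a-3p, had 615 times the reads of miR-26a-5p in NC-Exo and 439 times in HC-Exo. The growth-restraining let-7a-5p had 147 and 89.5 times the reads of miR-26a-5p. The antifibrotic miR-29a-3p, counted 104 and 172 times, was nearer, at 3.85 and 3.25 times miR-26a-5p. These mature RNAs are of nearly equal length, so no correction for length was made, but adapter ligation can favour some miRNAs, so reads need not be in proportion to molecules.

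**Figure D2:**
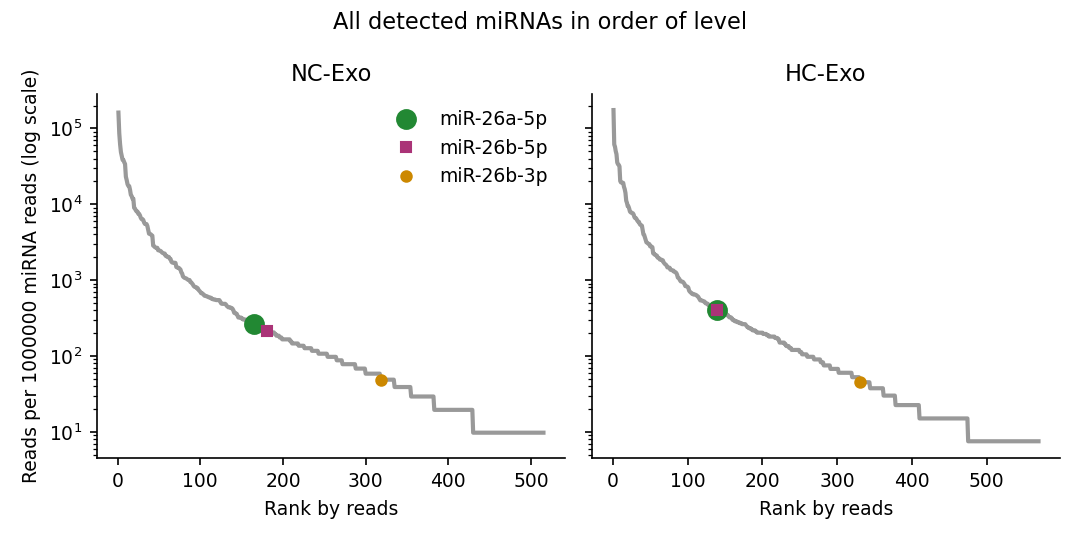
All detected miRNAs of each library in order of reads, with the rank on the x axis and the level in reads per 1000000 miRNA reads on a log y axis. The 5p members lie at ranks 165 and 181 in NC-Exo and share rank 140 in HC-Exo, and miR-26b-3p lies at ranks 318 and 330.

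MiRNAs were also grouped by seed. Of the 635 rows, 312 matched a mature rat name of RefSeq by name, and these rows held 67.2% (NC-Exo) and 65.7% (HC-Exo) of the reads and formed 247 seed groups. The miR-26 seed, with 2 rows and with 49 and 106 reads, stood at rank 62 of the 247 groups for NC-Exo and at rank 50 for HC-Exo. Of these groups, the let-7 seed, with 9 rows, was first in both libraries, with 18497 and 22838 reads. The seed of miR-30c-5p, also known for restraining hypertrophy and fibrosis, had 466 and 635 reads in 3 rows (miR-30a-5p, miR-30c-5p and miR-30e-5p), and that of miR-29a-3p had 179 and 284 in 3 rows. Rows without a match by name are outside these groups and their sums and ranks, among them miR-30b-5p (61 and 111 reads), miR-30d-5p (126 and 196) and miR-1a-3p. With 16614 and 23271 reads, miR-1a-3p alone was above the let-7 group in HC-Exo.

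The question of the comparison was whether each miRNA held a different share of the miRNA reads in exosomes of Ang II-treated cells. The amount of a miRNA per exosome cannot be read from such shares. No miR-26 row passed the main test. With stricter read filters, 10 reads in each library or 50 in sum, miR-26b-5p did pass, as given in the last section. A two-sided exact binomial test compared the reads of both libraries for every miRNA whose reads summed to 10 or more. This left 340 miRNAs, over which the Benjamini-Hochberg adjustment was made, and what is compared is this pair of libraries, not the conditions. For miR-26a-5p, HC-Exo stood at 1.51 times NC-Exo (95% interval 0.935 to 2.50). On the log2 scale this was 0.60 (-0.10 to 1.32), with p = 0.0904 before and 0.228 after adjustment of the exact binomial test. Its interval includes equal levels. For miR-26b-5p the ratio was 1.86 (1.11 to 3.21), or 0.89 on the log2 scale (0.15 to 1.68), and the exact binomial test gave p = 0.0141 before and 0.0572 after adjustment. This interval leaves out equal levels, but the adjusted value missed the threshold of 0.05. The ratio of miR-26b-3p was 0.925 (0.235 to 3.83), which 5 and 6 reads cannot set apart from a fall or a rise of more than 3-fold (exact binomial test, adjusted p = 1). The 5p reads summed to 49 and 106, and the ratio of their shares, 1.67 (1.18 to 2.39), is given as a description, since a read counted under both names would enter this sum more than once.

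Among the 340 miRNAs, 47 (13.8%) were higher in HC-Exo with an adjusted p under 0.05, and 76 (22.4%) were past it in either direction. When a change of 2-fold or more, a log2 ratio beyond 1 or -1, was asked for as well, 16 (4.71%) passed. The count of miR-26 rows past each of these limits was 0 of 3. Before adjustment, 70 miRNAs (20.6%) were higher with p under 0.05, and miR-26b-5p was 1 of these. The log2 ratio of miR-26b-5p was reached or passed by 42 of the 340 miRNAs (12.4%), and that of miR-26a-5p by 75 (22.1%). The median log2 ratio of all 340 was 0.10, and 191 were above 0. Low counts spread widely: the 97 miRNAs with 50 to 199 reads in sum, the range that holds both 5p members, had a median log2 ratio of 0.06 and quartiles of -0.22 and 0.50. Both 5p members lay above the upper of these quartiles. All these calls rest on counting error alone. When a coefficient of variation of 0.1 between libraries was assumed in edgeR's exact test, 0 of the 340 miRNAs passed after Benjamini-Hochberg adjustment, the miR-26 rows and the listed miRNAs included, and 55 had an unadjusted p under 0.05.

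**Figure D3:**
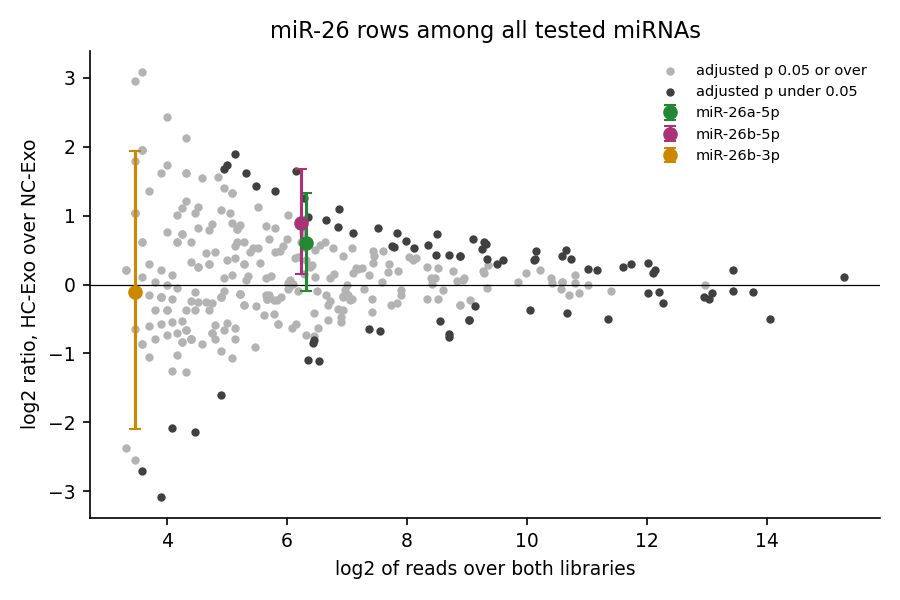
HC-Exo over NC-Exo as a log2 ratio (y axis) against the log2 of the reads over both libraries (x axis) for the 340 tested miRNAs, dark where the adjusted p of the exact binomial test is under 0.05. The miR-26 rows are coloured, with bars for the 95% interval of counting error, and sit at 0.60, 0.89 and -0.11 among undarkened points.

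The direction of the 5p members did not turn under any of the 7 other scalings, which gave log2 ratios of 0.47 to 0.60 for miR-26a-5p and 0.77 to 0.89 for miR-26b-5p. Upper-quartile scaling shifted every log2 ratio by -0.12 and set the median of the 340 miRNAs at -0.03. It left 62 called miRNAs, 24 of them higher (38.7%, against 61.8% with the totals). The share called higher was 50% with TMM factors, and 44.6% both with the median log2 ratio set to 0 and with totals that left out the 10 most abundant miRNAs. The adjusted p of the exact binomial test stayed over 0.05 for both members under each of these scalings, from 0.228 to 0.366 for miR-26a-5p and from 0.0572 to 0.127 for miR-26b-5p. The interval of miR-26b-5p stayed above 0 under all 7, with its lowest bound at 0.03 under upper-quartile scaling.

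**Figure D4:**
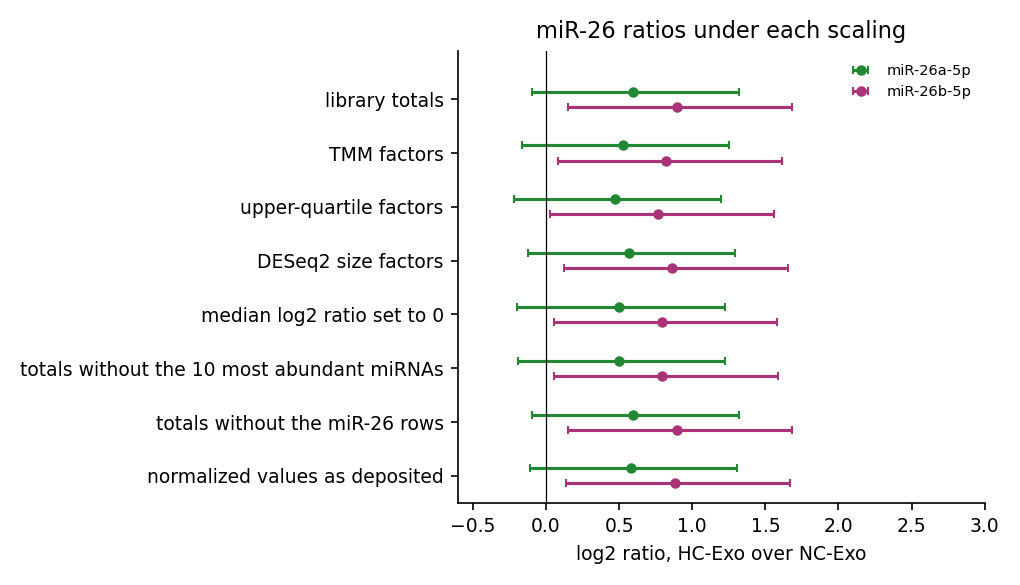
HC-Exo over NC-Exo as a log2 ratio (x axis) for miR-26a-5p and miR-26b-5p under the library totals and 7 other scalings (rows), with bars for the 95% interval of counting error. The points of miR-26b-5p run from 0.77 to 0.89 with bars above 0, and the bars of miR-26a-5p cross 0 in every row.

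The balance of both paralogs was nearly even in each library. Of the 5p reads, miR-26b-5p held 44.9% (22 of 49, Clopper-Pearson interval 30.7 to 59.8%) for NC-Exo. For HC-Exo its part was 50% (53 of 106, 40.1 to 59.9%). Both intervals include equal amounts. The log2 ratio of miR-26b-5p was 0.30 above that of miR-26a-5p, with an exact interval of -0.76 to 1.36 (two-sided Fisher's exact test, p = 0.606, adjusted p = 1 over 19 pairs). This interval includes no difference and also a difference of 2-fold towards miR-26b-5p. This comparison does not depend on the library scaling. The equal counts of 53 in HC-Exo were not repeated in NC-Exo, whereas 3 other pairs, among them miR-199a-3p and miR-199b-3p, had identical counts in both libraries. Whether the mature sequences within those 3 pairs differ was not examined, so they do not tell how miR-26 reads were assigned. A read that spans position 11 (C11U) without a mismatch fits only 1 of the 5p members, but the mismatches allowed are not given. How reads that fit both 5p members were assigned is not given in the sources used here, so the split between them is uncertain.

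The same measure was taken for all rows named a and b of 1 number and arm with at least 50 reads each over both libraries. Of the 16 pairs whose counts were not identical, 10 were within 2-fold of each other in the NC-Exo library and 11 in the HC-Exo library, and miR-26 was among them each time. Also near equal was the miR-27 pair, with 208 and 215 reads of miR-27a-3p and miR-27b-3p in NC-Exo and 414 and 420 in HC-Exo. The pair of miR-99a-5p and miR-99b-5p was uneven, with 26 and 242 reads in NC-Exo. A shift in balance between the libraries of greater size than that of miR-26 was seen in 3 of the 16 pairs, the largest in miR-29, whose log2 shift towards miR-29b-3p was 0.66 (Fisher's exact test, adjusted p = 0.957). The only pair past the threshold was miR-125, with a log2 shift of 0.23 towards miR-125b-5p (Fisher's exact test, adjusted p = 0.0204).

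**Figure D5:**
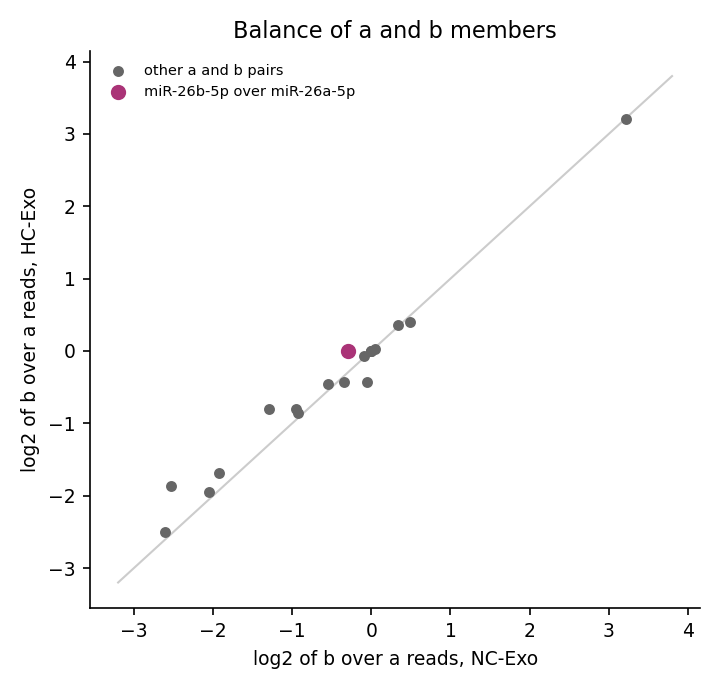
The log2 of b over a reads in NC-Exo (x axis) and in HC-Exo (y axis) for 19 pairs of rows that differ in the letter a or b, with the line of equal balance. The miR-26 pair stands at -0.30 in NC-Exo and 0 in HC-Exo, just above the line.

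For miR-26b both arms were counted, and the 5p arm was the main one. In NC-Exo the 5p arm held 22 of 27 reads, or 81.5% (Clopper-Pearson interval 61.9 to 93.7%), a 4.40-fold excess over the 3p arm. In HC-Exo it held 53 of 59 reads, or 89.8% (79.2 to 96.2%), an 8.83-fold excess. The intervals overlap widely. Both arms were listed for 160 miRNAs, and 100 of these had at least 50 reads in sum. Among the 100, the median share of the main arm over both libraries was 94.8%, with quartiles of 85.9 and 98.5%. The share of miR-26b, 87.2%, lay between the lower quartile and the median, and 72 miRNAs were more one-sided. The miR-30a arms, by comparison, were nearly even, with 149 and 130 reads in NC-Exo. A 3p arm of miR-26a was not analysed here.

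Other miRNAs known to restrain hypertrophy were compared from a list of 12, of which 11 could be tested. Of these, 4 were higher and 1 was lower in HC-Exo with an adjusted p under 0.05, where 13.8% of all tested miRNAs were higher and 8.53% lower. The median log2 ratio was 0.35, beside 0.10 over all tested. The muscle miRNA miR-133b-3p, with 215 and 397 reads, rose by 0.51 on the log2 scale (0.27 to 0.76), and the exact binomial test gave an adjusted p of 0.000352. The let-7 relative miR-98-5p went up from 721 to 1066 RPM, with a log2 ratio of 0.56 (0.15 to 0.99), and also miR-1a-3p and miR-133a-3p passed with smaller ratios of 0.11 and 0.36. The call of miR-1a-3p was lost with the median log2 ratio set to 0, without the 10 most abundant miRNAs in the totals and with upper-quartile scaling, where its log2 ratio turned to -0.01. That of miR-98-5p was lost under these 3 scalings and under TMM factors. The metabolic miR-378a-3p fell, at -0.11 (-0.19 to -0.03). With 18 and 47 reads, miR-29b-3p had a log2 ratio of 1.01 (0.20 to 1.88) that missed the threshold like miR-26b-5p (exact binomial test, adjusted p = 0.0508). Under upper-quartile scaling 2 of the 11 were called higher and 1 lower, and the median was 0.23.

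Of 13 miRNAs known to promote hypertrophy, 12 could be tested, with 5 higher and 2 lower in HC-Exo, against the same 13.8% and 8.53% of all tested, and a median log2 ratio of 0.29. The myosin-encoded miR-499-5p rose from 10 to 35 reads, a call lost with upper-quartile scaling (exact binomial test, adjusted p = 0.0504), and miR-199a-5p, which lies near miR-26b-5p in level, rose from 19 to 59. The abundant miR-23a-3p fell from 38330 to 33179 RPM, and miR-212-3p fell from 51 to 31 reads. The listed row of the inflammatory miR-155, miR-155-5p, had 11 and 8 reads (log2 ratio -0.84, exact binomial test, adjusted p = 0.456), while a row named miR-155, outside the list, had 6 and 29 (log2 ratio 1.90, adjusted p = 0.0121). The latter breaks the alphabetical order of the count table, where it follows miR-450a-1-3p. Row order alone does not tell which reads a row counts, and the origin of this row is not given, so what it counts is uncertain. The paper lists miR-155 as higher in HC-Exo with a fold change that rounds to 1.90, the log2 ratio of this row. The uncertainty therefore also touches that listing. The paper also measured miR-155 in the exosomes by qRT-PCR and describes the outcome as essentially the same as that of its sequencing. The count and the median of the list hold only miR-155-5p. Under upper-quartile scaling, 3 were called higher and 2 lower, with a median of 0.17. Both lists thus held calls in each direction, and their medians lay between the log2 ratio of 0.60 of miR-26a-5p and the median of all tested.

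The miRNAs most like each 5p member were named by the distance of their log2 RPM over the 2 libraries. Nearest to miR-26a-5p was miR-300-3p, with 27 and 51 reads and a distance of 0.06, followed by miR-20a-5p, with 25 and 50 reads and a distance of 0.14. Next were miR-326-3p (24 and 53 reads), miR-181a-5p (30 and 50) and miR-7a-1-3p (27 and 46). Nearest to miR-26b-5p were miR-326-3p, at a distance of 0.13, and miR-379-5p, with 23 and 59 reads, at 0.17. These were followed by miR-20a-5p and miR-199a-5p, and miR-26a-5p was the fifth, at 0.30. Of these neighbours, miR-379-5p and miR-199a-5p passed the exact binomial test, with adjusted p of 0.0270 and 0.00466 and log2 ratios of 0.98 and 1.26. Only 2 libraries enter this distance, and rows of like level are many.

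Both 5p members lay in the lowest of 3 groups by G and C content, which reached up to 43.5%. Their G and C content was 40.9% for miR-26a-5p and 33.3% for miR-26b-5p, against a median of 47.6% over the 131 matched miRNAs with at least 50 reads in sum. Across these miRNAs, which share both libraries and are not independent replicates, G and C content and log2 ratio had a Pearson r of -0.08 and a Spearman rho of -0.03. The part of base composition in the ratios of the members was not tested.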

How the data were processed

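Exosomal RNA was made into small RNA libraries and sequenced on an Illumina instrument, with 1 library for each condition. The authors deposited raw read counts per mature miRNA name, which were used here. The authors also deposited normalized values, a signal in which 1 read counts 12.1 (NC-Exo) or 9.23 (HC-Exo), used as 1 of the alternatives (1 row departs from these factors by over 1%). A further table with their fold changes, p-values and marks of significance was not used. The submitters' processing notes name Bowtie2 and the mouse genome builds mm9 and GRCm38, with no role given, although the cells are from rat. Trimming, mismatches and the handling of reads that fit several miRNAs are not given in the sources used here.

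Counts were divided by library totals. With 1 library a group no quasi-likelihood fit could be made, and miRNAs whose reads summed to 10 or more were tested by a two-sided exact binomial test with Benjamini-Hochberg adjustment over all tested. Intervals are exact 95% (Clopper-Pearson). The alternatives were 7 scalings, 3 filters, 2 pseudocounts and edgeR's exact test with 3 assumed coefficients of variation. The fits were tested on simulated data. Named miRNAs are the miR-26 rows, their neighbours by level and likeness, the leading rows of seed groups, pairs named a and b, and members of the lists. Of the neighbours by level, only those that are also neighbours by likeness are given. The members and lists were chosen with earlier results of these data known. The 3p arm of miR-30a, miR-30e-5p and the row named miR-155 were named after their values were seen. Sequences and gene positions are from RefSeq (GRCr8). R 4.3.3, edgeR 4.0.16, DESeq2 1.42.0, Python 3.11.15, scipy 1.17.1, numpy 2.4.6 and pandas 2.3.3 were used.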

Additional observations from a re-analysis of the deposited data

How the results depend on the processing

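No paired analysis was possible because each condition has 1 library, and no replicate could be left out. The log2 ratio of miR-26b-5p, 0.89, passed the threshold of the exact binomial test when 10 reads were required in each library (adjusted p = 0.0492) or 50 in sum (adjusted p = 0.0388), where fewer miRNAs were tested. Over its 15 alternatives the adjusted p of these exact tests ran from 0.0388 to 1, and for miR-26a-5p from 0.174 to 1, with no call. The 2 pseudocounts among these alternatives had no test of their own and carry the adjusted p of the main test. Neither member changed direction under the 7 scalings or the 2 pseudocounts. The 3 read filters and the 3 assumed coefficients of variation leave a ratio as it is, so they could not turn it. Where spread beyond counting was assumed, as a coefficient of variation of 0.1, 0.2 or 0.4 in edgeR's exact test, the calls were 0, 0 and 0 of 340 against 76, and 55, 20 and 1 miRNAs had an unadjusted p under 0.05. At 0.1 the unadjusted p of this exact test was 0.149 for miR-26a-5p and 0.0437 for miR-26b-5p. The calls in the higher direction, 47 with the totals, were 24 with upper-quartile factors and 29 both with the median log2 ratio set to 0 and without the 10 most abundant miRNAs. The calls with the log2 limit, 16 in the main test, were 8 and 7 under the stricter read filters. When the 10 most abundant miRNAs were left out of the total, a smaller denominator, the family's share was 0.123% for NC-Exo and 0.184% for HC-Exo. A pseudocount of 5 reads gave log2 ratios of 0.48 for miR-26a-5p and 0.73 for miR-26b-5p. Counts of 22 to 53 reads left intervals of 0.935 to 2.50 and 1.11 to 3.21 around the members' ratios from counting error alone, and the spread between libraries was not measured.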
